A study of Homo sapiens with 12 samples.

Results

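The HK-2 line, immortalized epithelial cells of the human proximal tubule, was given low-dose Kbr or its vehicle for 24 h, and the effect of the compound at that time is described here across all named genes. The comparison used 6 of the 12 arrays of the series, 3 from cells given low-dose Kbr for 24 h and 3 from cells given vehicle for 24 h, chosen by the treatment and time in their labels. The other 6 arrays hold the same design at 48 h. Each treated array was matched to the control array of equal biological replicate number, and the arrays are called control 1 to 3 and treated 1 to 3. All groups shared the cell line and a medium supplemented with EGF, hydrocortisone, insulin, transferrin and selenite, so the vehicle cells were themselves under growth factor and hormone, and exposure began on cultures near confluence that had been seeded the day before. The series is one of several in a search for expression signatures of kidney toxicity. The sources used here give neither the full name and concentration of Kbr nor the nature of the vehicle. The labels call the replicates biological without saying what was repeated, and all came from a single line, so the p-values measure the spread between these cultures only.

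As background, NRF2 and HSF1 head stress responses that are well described in epithelial cells. NRF2 (NFE2L2) is a transcription factor that KEAP1 holds for destruction by the proteasome; when oxidants or electrophiles modify KEAP1, NRF2 accumulates, pairs with small MAF proteins and binds antioxidant response elements in genes of glutathione, thioredoxin, quinone and heme metabolism. HSF1 drives cytosolic chaperones when unfolded protein builds up. A differentiated tubular epithelium is also known by its cell-cell junctions, its keratins and the basement membrane of collagen IV and laminin on which it rests.

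Transcript levels are deposited log2 values, and a gene is represented by its probe set with the highest mean over the 12 arrays. Of 19775 named genes, 10665 had a log2 value above 4 on at least 3 of the 12 arrays and were tested, and 9110 were not. Arrays of a 24 h group correlated at 0.988 to 0.993 across the tested genes. The first principal component of the 6 arrays, with 50.5% of the variance, placed the controls at -26.78 to -6.32 and the treated arrays at 11.59 to 23.50, and the second, with 25%, set both replicate 2 arrays apart from the rest. RNA quality, read as the 3′ minus 5′ difference between the ACTB controls, was 0.794 ± 0.173 (SD, n = 3) in controls and 0.854 ± 0.115 in treated cells. Of 14 proximal tubule markers only DPP4 and SLC3A1 lay above 4 on all 6 arrays, and LRP2, CUBN, AQP1 and ANPEP, the endocytic receptors, water channel and brush border peptidase that define the segment, did not. Of 10 epithelial or renal origin markers, 9 lay above 4 on all 6 arrays, against 0 of 8 measured markers of loop, distal tubule and collecting duct, 0 of 5 of endothelium and 0 of 4 of leukocytes. Podocyte markers above 4 on all 6 arrays were PODXL and SYNPO. Of 7 fibroblast and pericyte markers, 4 lay above 4 on all 6 arrays: COL1A1, DCN, LUM and ACTA2. In RNA from whole cultures, fewer cells of a type and less RNA per cell cannot be told apart.

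In treated cells 1112 genes rose and 1490 fell, 2602 of the 10665 tested (24.4%; limma with the replicate number as a block, Benjamini-Hochberg adjusted p under 0.05). Rises made up 10.4% of the tested genes and falls 14.0%, and these shares are the background for every count of members in this main fit. Most changes were small: 898 of the rises and 933 of the falls were under 1.5-fold, and the median size among the called genes was 0.458 on the log2 scale. Only 32 rises but 140 falls reached 2-fold, and the rise with the largest fold, that of the heme oxygenase HMOX1, was 3.91-fold. Of the 140 falls of at least 2-fold, 16 ended with a treated mean below 4, where the background correction sets the fold. Without the replicate block 612 genes passed (5.74%), 265 higher (2.48%) and 347 lower (3.25%), and all 612 were among the 2602. With only the 6 arrays of 24 h in the fit 3673 passed, 1603 higher and 2070 lower. With 1 array left out the count was 1081, 1216 and 2009 without control 1 to 3, and 1422, 1325 and 1700 without treated 1 to 3. Rises then numbered 422, 443, 829, 513, 532 and 719 in that order, and falls 659, 773, 1180, 909, 793 and 981. Counts of members under any of these other fits stand against the totals of the same fit. A further 38 called genes are named below after their values were seen, to complete short counts. Of their calls 30 were lost without the block and 34, 31, 21, 28, 32 and 28 without control 1 to 3 and treated 1 to 3, and those of ENPP3, LAMA5 and PSMC6 held without any single array. The groups were free of overlap in 3396 of the tested genes (31.8%) and in 1913 of the called ones. All 3 matched differences had 1 direction in 7130 of the tested genes (66.9%) and in 2601 of the called ones. Matched pair 3 had the fewest differences of 2-fold or more, 166 genes, against 288 in pair 1 and 301 in pair 2.

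Rises and falls lay at different levels. Among genes with a mean log2 value of 10 to 12 over the 6 arrays, 15.6% rose and 13.3% fell, whereas between 6 and 8 these shares were 7% and 16.7%. At the top, from 12 upward, 13.2% rose and 9.32% fell.

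**Figure D1:**
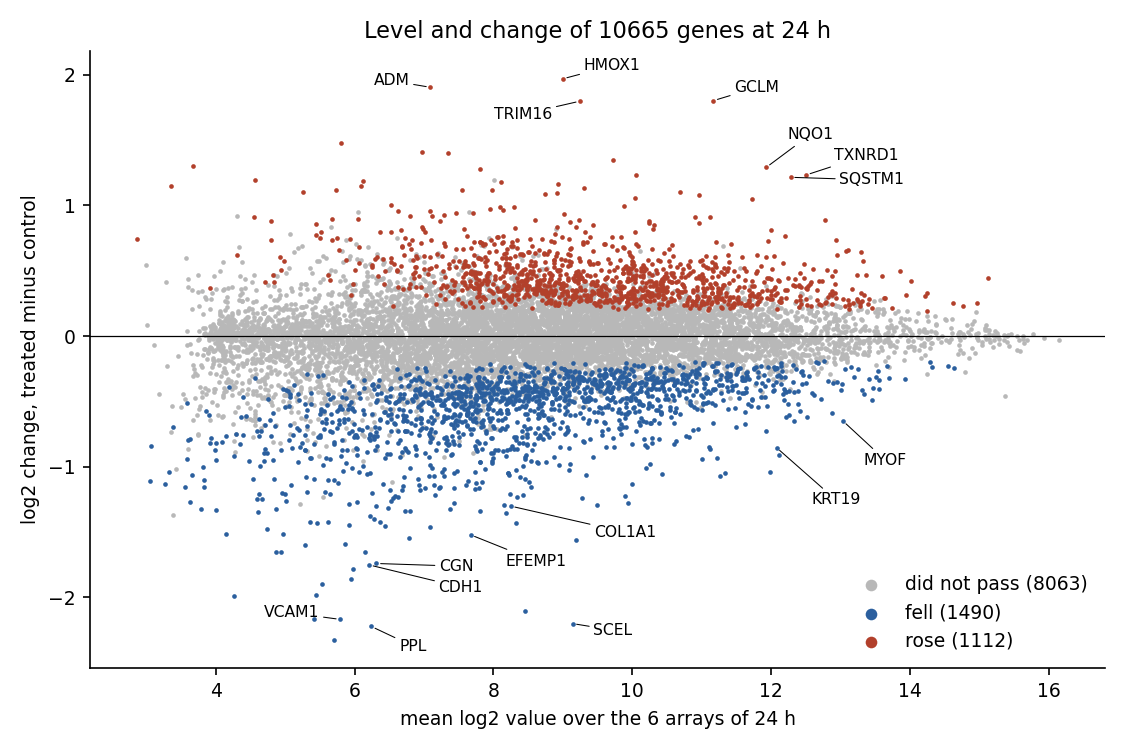
Change of each of the 10665 tested genes at 24 h (vertical axis, log2, treated minus control) against its mean log2 value over the 6 arrays (horizontal axis), with rises in red, falls in blue and genes that did not pass in grey. The rises with the largest folds, such as HMOX1, GCLM and TRIM16, stand near 2 on the log2 scale, and the falls spread further down and lie at lower levels.

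Genes of glutathione, thioredoxin, quinone and heme metabolism were among the largest rises, as were ADM, DGKG, FOSL1, GPAT3 and ZSCAN31, genes of other functions that rose by 1.34 to 1.90. HMOX1, the inducible enzyme that opens the heme ring, stood at 8.08, 7.75 and 8.22 in controls 1 to 3 and 9.98, 9.91 and 10.07 in treated 1 to 3. The 3 treated arrays lay close together and far above every control (log2 change 1.97, SE 0.14, 3.91-fold, adjusted p = 0.000286). GCLM, the modifier subunit of glutamate-cysteine ligase, which begins glutathione synthesis, stood at 10.20, 9.95 and 10.66 on the control arrays and 12.14, 11.97 and 12.10 on the treated arrays. Its groups were again well apart (log2 change 1.80, SE 0.11, 3.49-fold, adjusted p = 0.000178), and the lowest matched difference was that of pair 3, whose control was the highest of the 3. TRIM16, a ubiquitin ligase linked to NRF2 and SQSTM1, was at 8.21, 8.22 and 8.62 in controls 1 to 3 and 10.13, 10.12 and 10.19 in treated 1 to 3, with no overlap (log2 change 1.80, SE 0.13, 3.48-fold, adjusted p = 0.000297). The quinone reductase NQO1 was at 11.28, 11.35 and 11.22 on the control arrays and 12.66, 12.80 and 12.27 on the treated arrays, so that all treated arrays were higher and treated 3 rose least (log2 change 1.29, SE 0.13, 2.45-fold, adjusted p = 0.000798). TXNRD1, the cytosolic thioredoxin reductase, stood at 11.84, 12.03 and 11.80 in controls 1 to 3 and 13.08, 13.35 and 12.94 in treated 1 to 3, without overlap (log2 change 1.23, SE 0.08, 2.35-fold, adjusted p = 0.000259). SQSTM1, the autophagy receptor p62 that also binds KEAP1, stood at 11.77, 11.47 and 11.78 on the control arrays and 13.09, 12.82 and 12.76 on the treated arrays, again without overlap (log2 change 1.22, SE 0.12, 2.32-fold, adjusted p = 0.000764). SRXN1, the sulfiredoxin that restores overoxidized peroxiredoxins, was at 8.31, 7.97 and 8.85 in controls 1 to 3 and 9.39, 9.34 and 9.69 in treated 1 to 3 and rose less (log2 change 1.09, SE 0.15, 2.13-fold, adjusted p = 0.00237). Each of these 7 calls held without the block and without any single array.

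The antioxidant response element was searched as TGACNNNGC on either strand in the 250 bases before the RefSeq start (GRCh38.p14). Of the 7 genes just described GCLM and TXNRD1 had a match, NQO1, SQSTM1, TRIM16 and SRXN1 had none, and HMOX1 was not searched. The GCLM and TXNRD1 windows are shown to make the element visible in both orientations, with that of ME1, a gene of NADPH supply picked after the matches were seen. SLC3A2, ABCB6, CBR1, PSMD12 and PSMD3 also had a match. So did SCEL, CGN and LYPD1, which are among the largest falls, and the letters matched in SCEL are those matched in ME1. Capitals mark the match, which begins 34 bases before the start in GCLM (chr1:93909431-93909680, minus strand), 99 in TXNRD1 (chr12:104215529-104215778, plus strand) and 137 in ME1 (chr6:83431052-83431301, minus strand).
GCLM: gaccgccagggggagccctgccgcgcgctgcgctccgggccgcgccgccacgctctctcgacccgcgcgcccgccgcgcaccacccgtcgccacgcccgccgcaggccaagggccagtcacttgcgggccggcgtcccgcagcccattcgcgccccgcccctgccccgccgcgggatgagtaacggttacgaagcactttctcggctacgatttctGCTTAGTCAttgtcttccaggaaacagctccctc
TXNRD1: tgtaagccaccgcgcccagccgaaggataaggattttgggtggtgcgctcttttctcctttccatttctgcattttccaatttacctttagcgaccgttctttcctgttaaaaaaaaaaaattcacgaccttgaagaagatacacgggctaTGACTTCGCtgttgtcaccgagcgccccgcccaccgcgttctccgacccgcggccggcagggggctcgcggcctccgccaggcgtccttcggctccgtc
ME1: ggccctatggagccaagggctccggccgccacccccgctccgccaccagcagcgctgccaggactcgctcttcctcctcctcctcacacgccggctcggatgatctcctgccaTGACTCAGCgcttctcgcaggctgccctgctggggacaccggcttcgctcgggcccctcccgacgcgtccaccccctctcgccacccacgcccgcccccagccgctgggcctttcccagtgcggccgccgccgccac
In GCLM the capitals show the element in its reverse orientation. The element was in 7 of 27 promoters of genes that rose at least 2-fold (25.9%), in 13.4% of those of falls of at least 2-fold, in 13.7% of the promoters of all rises and in 11.4% of those of all falls, against 12.3% of the tested genes and 11% of all 27305 promoters in the table. Among proteasome genes that rose it was in 2 of 19 promoters (10.5%), those of PSMD12 and PSMD3. A match is a description of the letters and was not tested as a binding site. Lack of a match holds for these 250 bases only, and the rest of each gene was not searched.

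Of the 11 tested genes of glutathione synthesis and cystine uptake (13 listed), 7 rose and 2 fell, with a median change of 0.51 against -0.02 over all tested genes. Besides GCLM these were GSR, the reductase that regenerates glutathione (log2 change 0.59, SE 0.09, 1.51-fold, adjusted p = 0.00278), the glutaredoxin GLRX2 (0.44), the glutathione-degrading CHAC2 (0.51), the catalytic subunit GCLC (0.68; named after its value was seen) and both subunits of the cystine exchanger. SLC7A11, its transport subunit, stood at 6.95, 7.45 and 7.10 on the control arrays and 8.50, 8.48 and 8.34 on the treated arrays, without overlap (log2 change 1.28, SE 0.35, 2.42-fold, adjusted p = 0.0301). SLC3A2, its heavy chain, changed by 1.16 (adjusted p = 0.0333). Both exchanger calls were lost without control 1, control 2 or any treated array (adjusted p up to 0.129 and 0.14) and without the block (0.094 and 0.121). Other probe sets of SLC7A11 changed by 1.41 and 0.16 and did not pass. The call of GLRX2 was lost without control 1, treated 2 or treated 3 (up to 0.0696) and that of CHAC2 without control 1, control 2 or treated 1 (up to 0.0957). The falls were those of the synthase GSS (-0.34) and of GLRX (-0.24; also named after its value was seen). Without the block GCLM, GSR and GLRX2 alone passed, and the rises numbered 2 without control 1 and 3 without control 2 or any treated array.

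In the thioredoxin and peroxiredoxin system 4 of 14 tested members rose, TXNRD1, SRXN1, thioredoxin itself (TXN, 0.31) and the methionine sulfoxide reductase MSRB1 (0.37), and its relatives MSRB3 (-0.43) and MSRB2 (-0.28, named after its value was seen) fell. The rises numbered 2 without the block and without control 1, control 2, treated 1 or treated 2, when only TXNRD1 and SRXN1 were left, and the falls then numbered 0. Of 14 tested genes listed under quinone, carbonyl and aldehyde reduction, not all of them reductases, 5 rose and 3 fell. The rises were NQO1, the carbonyl reductases CBR1 (log2 change 0.55, SE 0.08, 1.46-fold, adjusted p = 0.00331) and CBR3 (log2 change 0.58, SE 0.08, 1.5-fold, adjusted p = 0.00273), the epoxide hydrolase EPHX1 (0.62, adjusted p = 0.00547) and UGDH, which makes the glucuronic acid donor (0.60, adjusted p = 0.00283). EPHX1 and UGDH did not pass without the block (0.116 and 0.0652), and 9 members rose with only the 24 h arrays fitted. The 3 falls, chosen after their values were seen, were PTGR1 (-0.33), ALDH7A1 (-0.31) and AKR7A2 (-0.25), and none of them passed without the block.

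Glutathione transferases passed only as falls, with 0 of 10 tested members up and 4 down (15 listed; median -0.18). GSTT1, GSTZ1 and GSTK1, which conjugate glutathione to small substrates or isomerize them, fell by 0.76, 0.75 and 0.49 on the log2 scale (adjusted p = 0.00379, 0.0073 and 0.00502). For GSTT1 the arrays read 7.68, 7.54 and 7.19 in controls 1 to 3 and 6.93, 6.60 and 6.58 in treated 1 to 3, all treated arrays being lower. The 3 falls held without the block and without any single array, and the fourth, GSTA4 (-0.29, adjusted p = 0.0473), was lost without the block (0.172) and without any single 24 h array, 48 h control 1, 48 h control 2, 48 h control 3 or 48 h treated 2 (up to 0.194).

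Among 16 tested genes of heme breakdown and iron handling 5 rose and 4 fell. Beside HMOX1 the rises included ABCB6, a porphyrin transporter (log2 change 0.67, SE 0.11, 1.6-fold, adjusted p = 0.00365), the transferrin receptor TFRC (0.65) and, named after their values were seen, the ferritin light chain FTL (0.25) and the heme synthesis enzyme ALAS1 (0.29). HMOX2, the constitutive heme oxygenase, was -0.38 (adjusted p = 0.00684; 0.277 without the block), and its arrays overlapped between the groups. The iron exporter SLC40A1 fell by 1.34 (adjusted p = 0.019), a call lost without control 1, control 2, treated 2 or treated 3 (up to 0.0873). The other falls, ACO1 (-0.30) and BLVRA (-0.26), were named after their values were seen. Without the block HMOX1 and ABCB6 alone remained of the 9. Another probe set of TFRC had the opposite sign and did not pass. The rises numbered 9 with only the 24 h arrays fitted, 2 without control 1 or control 2 and 3 without control 3 or any treated array, and the falls 1 without control 1, control 2, treated 2 or treated 3 and 2 without treated 1 or 48 h treated 2.

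Of the proteins that govern NRF2, 5 of 11 tested members rose and 1 fell: TRIM16, SQSTM1, the small MAF partner MAFG (log2 change 0.77, SE 0.10, 1.7-fold, adjusted p = 0.00177), KEAP1 (0.41, adjusted p = 0.0187) and OSGIN1 (1.31, adjusted p = 0.0187) rose. OSGIN1 was below 4 in every control and its fold depends on the background correction. KEAP1 and OSGIN1 were lost without the block (0.196 and 0.0593) and also without control 2, control 3, treated 1 or treated 2 for KEAP1 (up to 0.0825) and control 1, control 3 or treated 1 for OSGIN1 (up to 0.0858); the rises numbered 3 without control 3 or treated 1. NFE2L2 itself read 11.80, 11.34 and 11.65 on the control arrays and 12.18, 11.44 and 11.72 on the treated arrays, with overlapping groups (log2 change 0.18, adjusted p = 0.2; it lies outside the rule for named genes). BACH1, a repressor at the same elements, changed by -0.39 (adjusted p = 0.0267; named after its value was seen, and 0.0827 without the block), and the falls numbered 2 with only the 24 h arrays fitted.

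NADPH feeds both reductase systems. Of 11 tested enzymes that make it 4 rose and 3 fell. The malic enzyme ME1 rose from 10.85 ± 0.08 to 11.57 ± 0.09 (log2 change 0.72, SE 0.09, 1.65-fold, adjusted p = 0.00156) and its call held without the block and without any single array. The mitochondrial IDH2 and NNT, which make NADPH in that compartment, fell by 0.56 and 0.36 (adjusted p = 0.00233 and 0.00481), and RPIA of the pentose phosphate pathway changed by 0.35 (adjusted p = 0.00808). Without the block these 3 did not pass (0.0888, 0.181 and 0.0689). The rises numbered 2 without any single 24 h array. ME1 was the only call of the 7 without the block. The other calls were PGLS (-0.30) and, after their values were seen, TKT (0.24) and TALDO1 (0.24).

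TXNIP, the arrestin that binds thioredoxin and limits glucose uptake, was among the largest falls. It stood at 9.45, 9.87 and 9.19 in controls 1 to 3 and 6.83, 7.36 and 8.0 in treated 1 to 3, so that treated arrays were lower in every pair but spread widely (log2 change -2.11, SE 0.46, 4.3-fold, adjusted p = 0.0126; 0.0449 without the block). The call was lost without control 1, control 2 or treated 2 (up to 0.0618). In vehicle cells TXNIP also changed by -3.31 between 24 and 48 h. Of its relatives, the alpha-arrestins, ARRDC1 fell (-0.59, adjusted p = 0.0182; 0.226 without the block, and lost without control 1, control 2, treated 1 or treated 2). ARRDC2 and ARRDC3, outside the rule for named genes, did not pass (-0.51 and -0.12), nor did MLXIP and MLX, the transcription factors of TXNIP in the same list (-0.19 and -0.05).

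**Figure D2:**
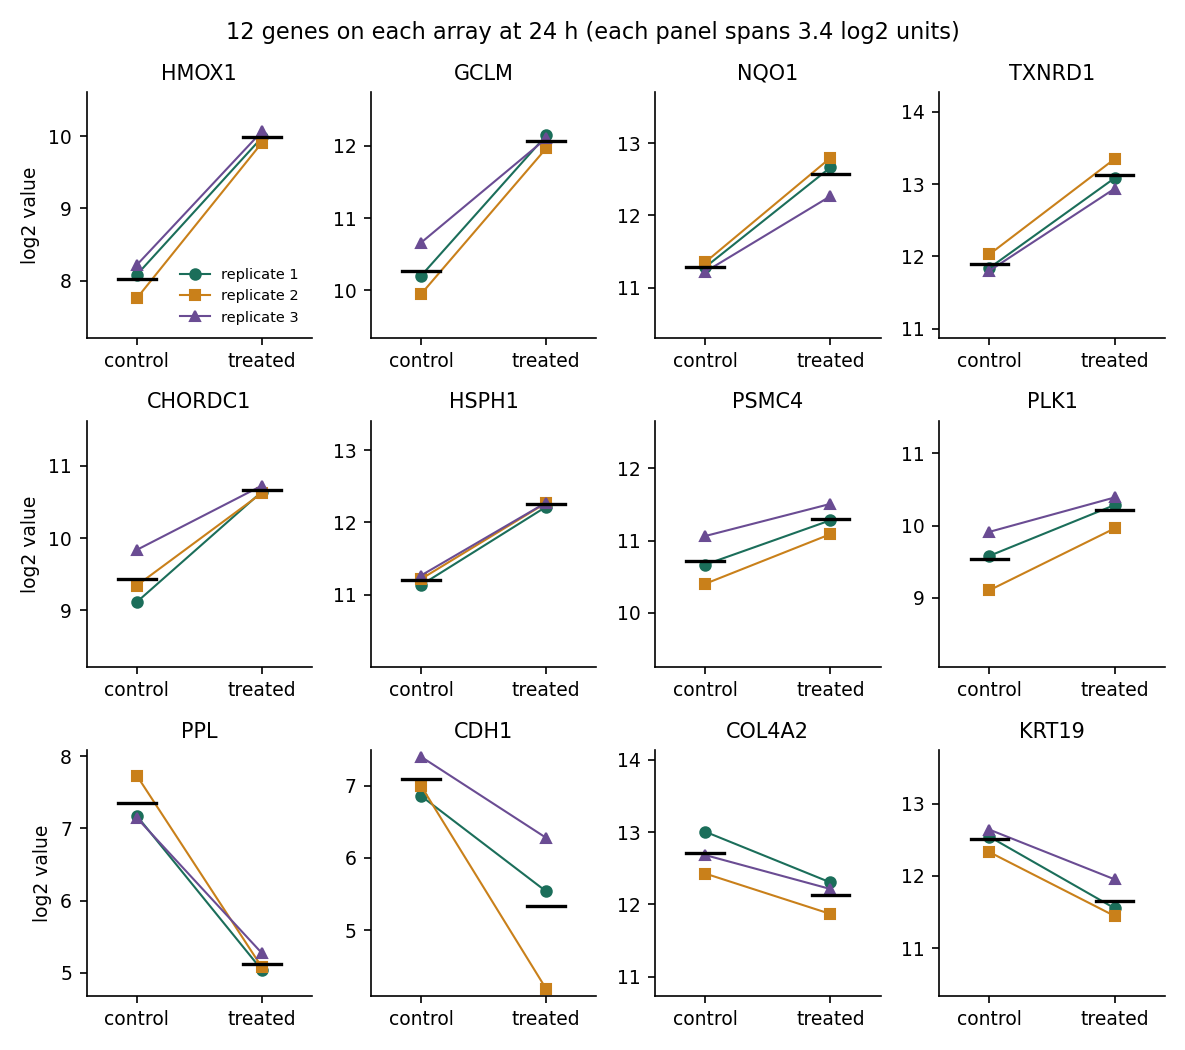
Log2 values of 12 genes on each of the 6 arrays of 24 h; colours and symbols mark the replicate number, lines join matched arrays and black bars are group means of 3 arrays. HMOX1, GCLM, CHORDC1 and HSPH1 lie apart between groups in every pair, while PSMC4, PLK1 and COL4A2 shift in parallel on top of differences between replicates.

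Most members of the chaperone list rose. Of 23 tested genes listed as chaperones and co-chaperones linked to HSF1 (29 listed), 18 rose and 0 fell, with a median change of 0.50. Most listed genes are cytosolic chaperones or their partners, but the list also holds HSF1 itself and the mitochondrial HSPD1 and HSPE1. CHORDC1, a partner of HSP90, was at 9.11, 9.34 and 9.84 on the control arrays and 10.64, 10.62 and 10.73 on the treated arrays, with all treated arrays close together and higher (log2 change 1.23, SE 0.12, 2.35-fold, adjusted p = 0.000779). HSPH1, the HSP110 nucleotide exchange factor, was at 11.13, 11.22 and 11.26 in controls 1 to 3 and 12.22, 12.27 and 12.27 in treated 1 to 3, where both groups were tight and apart (log2 change 1.05, SE 0.10, 2.07-fold, adjusted p = 0.000766). BAG2, which turns the HSP70 cycle, stood at 10.34, 10.38 and 10.63 on the control arrays and 11.36, 11.28 and 11.44 on the treated arrays (log2 change 0.91, SE 0.09, 1.88-fold, adjusted p = 0.000756). DNAJA1, a J-domain partner of HSP70, and FKBP4, an HSP90-bound immunophilin, rose by 0.74 and 0.76 (adjusted p = 0.000818 and 0.00101). These 5 held without the block and without any single array. Without the block 12 of the 18 passed, and leaving out single 24 h arrays left 14 to 17. HSPA1A and HSPA1B, the inducible HSP70 genes, share their probe sets on this array and were not tested.

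The promoter of CHORDC1 is shown because it holds the densest set of heat shock half-site pairs among the chaperone genes examined. Pairs were searched as TTCNNGAA and GAANNTTC, which overlap each other in tandem arrays, in the same window of 250 bases (GRCh38.p14, chr11:90223050-90223299, minus strand), and capitals mark the 6 matches.
CHORDC1: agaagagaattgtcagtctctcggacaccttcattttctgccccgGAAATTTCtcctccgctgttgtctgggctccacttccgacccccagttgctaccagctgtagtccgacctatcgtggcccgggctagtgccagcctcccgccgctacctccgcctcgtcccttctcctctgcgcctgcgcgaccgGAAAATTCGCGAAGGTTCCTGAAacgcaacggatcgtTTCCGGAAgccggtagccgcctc
Either pair was found in 4 of 17 promoters of the chaperone genes that rose (23.5%), in 8.52% of those of tested genes and in 11.7% of all promoters, and BAG2 and DNAJA1 had 1 match each. HSPH1 had none in this window.

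Proteasome subunits rose by less but together. All 28 tested subunits of 32 listed had positive changes, 22 passed, 0 fell and the median change was 0.29. PSMC4, an ATPase of the base, was at 10.67, 10.40 and 11.07 in controls 1 to 3 and 11.28, 11.09 and 11.51 in treated 1 to 3, higher in each pair (log2 change 0.58, SE 0.08, 1.5-fold, adjusted p = 0.00261). PSMD12 of the lid changed by 0.70 (adjusted p = 0.00314), PSMD3 of the lid by 0.57 (adjusted p = 0.00273) and PSMD11 by 0.49 (adjusted p = 0.00449). PSMD14, the deubiquitinase of the lid, was at 12.60, 12.76 and 12.82 on the control arrays and 13.12, 13.12 and 13.13 on the treated arrays, without overlap (log2 change 0.40, SE 0.07, 1.32-fold, adjusted p = 0.00448). Only PSMD14 and PSMC6 passed without the block (0.0363 and 0.0248; PSMC6 is named after its value was seen), and PSMC4, PSMD12, PSMD3 and PSMD11 did not (0.0912, 0.0869, 0.191 and 0.164). The count was 10 without control 1 or control 2 and 12 without treated 1 or treated 2.

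Among genes of protein folding in the endoplasmic reticulum 0 passed. All 24 tested genes of that folding system and its unfolded protein response lay between -0.26 and 0.29 on the log2 scale (limma; median -0.03), and 0 passed with or without the block, but 2 rose with only the 24 h arrays fitted. Of 21 tested genes downstream of ATF4 or tied to amino acid supply, 1 rose and 2 fell, and 7 rose with only the 24 h arrays fitted. ATF4 changed by 0.40 (adjusted p = 0.0206), DDIT4, an inhibitor of mTORC1, by -0.59 (0.0134) and the lipoprotein receptor VLDLR by -0.35 (0.0111). ATF4 was lost without control 1, control 2, treated 2 or treated 3 (up to 0.0938), DDIT4 without control 2 or treated 1 (up to 0.058), VLDLR without treated 2 (0.0543), and DDIT4 and VLDLR also without the block (0.171 and 0.0958).

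Of 26 autophagy and lysosome genes 5 rose and 3 fell. ATG16L1, part of the complex that lipidates LC3, rose from 6.65 ± 0.10 to 7.57 ± 0.12 (log2 change 0.92, SE 0.16, 1.9-fold, adjusted p = 0.00542) on every treated array, with or without the block. The LC3 relative GABARAP, the receptor OPTN and the proton pump subunit ATP6V1A fell by 0.37, 0.42 and 0.39 (adjusted p = 0.00802, 0.0082 and 0.00852) and did not pass without the block (0.114, 0.0524 and 0.111). The other rises were ATG5 (0.30) and, named after their values were seen, GABARAPL1 (0.52), TAX1BP1 (0.27) and ATG12 (0.27). ATG5 has another probe set of opposite sign that did not pass, and its call was lost with the mean of its probe sets and without the block (0.14), where only ATG16L1 and GABARAPL1 passed. The rises numbered 1 without treated 1, 2 without control 1 and 3 without control 2 or treated 2.

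Many genes of mitosis rose while part of the replication set fell. Of 26 tested genes of G2 and mitosis 15 rose, 0 fell and 24 had positive changes (median 0.28). UBE2C, the ubiquitin-conjugating enzyme of the anaphase-promoting complex, stood at 12.67, 12.64 and 12.95 in controls 1 to 3 and 13.21, 13.40 and 13.60 in treated 1 to 3, higher in each pair without overlap (log2 change 0.65, SE 0.07, 1.57-fold, adjusted p = 0.001). The mitotic kinase PLK1 stood at 9.58, 9.11 and 9.91 on the control arrays and 10.29, 9.96 and 10.39 on the treated arrays, with replicate differences of the same size as the effect (log2 change 0.68, SE 0.09, 1.6-fold, adjusted p = 0.00233). Cyclin A2 (CCNA2), the kinase AURKA and survivin (BIRC5) rose by 0.52, 0.55 and 0.53 (adjusted p = 0.00249, 0.00196 and 0.00283). PLK1, CCNA2, AURKA and BIRC5 did not pass without the block (0.0689, 0.0689, 0.0534 and 0.107), where 3 of the 15 passed, and the count was 8 without control 1, control 2 or treated 2 and 9 without treated 1.

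Of 26 tested genes of G1/S and DNA replication 2 rose and 7 fell (median -0.13). POLA1, the catalytic subunit of DNA polymerase alpha, stood at 9.83, 10.01 and 9.96 in controls 1 to 3 and 9.21, 9.21 and 9.40 in treated 1 to 3, with every treated array lower (log2 change -0.66, SE 0.08, 1.58-fold, adjusted p = 0.00163). RFC3, of the clamp loader, rose by 0.45 (adjusted p = 0.00697), as did MCM10, a replication initiator named after its value was seen (0.65, adjusted p = 0.0236). The helicase subunits MCM5 and MCM6 fell by 0.47 and 0.41 and cyclin D2 (CCND2) by 0.66 (adjusted p = 0.0206, 0.0201 and 0.00988), none of them without the block (0.113, 0.0667 and 0.217). Without the block RFC3 and POLA1 were the only calls left of the 9. The falls numbered 2 without control 1, control 2 or treated 3 and 3 without treated 1 or treated 2, and the rises 1 without any control array, treated 1 or treated 2 and 4 with only the 24 h arrays fitted.

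The targets of p53 and the inhibitors of the cell cycle were split, with 4 rises and 4 falls among 23 tested. MDM2, the ligase that degrades p53, rose from 9.09 ± 0.08 to 9.67 ± 0.28 (log2 change 0.58, SE 0.10, 1.49-fold, adjusted p = 0.0048). Its other probe sets changed by 0.25 and 0.16 and did not pass. CDKN1A, the inhibitor p21, stood at 9.64, 9.49 and 9.75 on the control arrays and 10.37, 10.29 and 10.16 on the treated arrays, without overlap (log2 change 0.64, SE 0.14, 1.56-fold, adjusted p = 0.0134), but its call was lost without control 1 or treated 2 (up to 0.0654) and without the block (0.0509). DDB2, a sensor of ultraviolet lesions, went the other way and stood at 8.39, 8.18 and 8.01 in controls 1 to 3 and 7.23, 7.16 and 6.87 in treated 1 to 3, every treated array being lower (log2 change -1.11, SE 0.14, 2.15-fold, adjusted p = 0.00196). TP53I3, a quinone oxidoreductase, fell by 0.52 (adjusted p = 0.00954) and the inhibitor CDKN1C by 0.52 (0.0021; 0.242 without the block, with overlapping groups). For CDKN1C the other probe sets changed by -0.27, -0.34 and -0.29 and did not pass. TIGAR, a phosphatase of fructose bisphosphate, changed by 0.48 (adjusted p = 0.00481; 0.101 without the block). The remaining rise AEN (0.62) and fall XPC (-0.53) were named after their values were seen, and the rises numbered 2 without the block and 2 without control 1 or treated 2.

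In DNA repair the largest change was a rise of NEIL3, a glycosylase for oxidized bases, which stood at 8.48, 8.82 and 8.94 on the control arrays and 9.81, 9.83 and 9.97 on the treated arrays, without overlap (log2 change 1.13, SE 0.08, 2.19-fold, adjusted p = 0.000297) and with a call that held without any single array and without the block. Across the 24 tested genes of base and nucleotide excision repair, however, 5 rose and 5 fell (median -0.08). The thymine DNA glycosylase TDG changed by 0.42 (adjusted p = 0.0115), the scaffold XRCC1 by -0.53 (0.00937), the nuclease subunit ERCC1 by -0.40 (0.0091) and the glycosylase MPG by -0.43 (0.0122). NEIL3 and TDG alone passed without the block, TDG was lost without control 1, control 2 or treated 1, ERCC1 without control 1 and MPG without control 1, control 2 or treated 1 (up to 0.0587, 0.0503 and 0.0616), and the rises and falls numbered 1 without control 1, 2 without control 2, treated 1 or treated 2 and 3 without control 3 or treated 3, and 1 without control 1, 2 without treated 1, 3 without control 2 or control 3 and 8 without 48 h treated 3. The other calls, ERCC3 (0.33), ERCC8 (0.26), RAD23B (0.28), SMUG1 (-0.29) and APEX1 (-0.22), were named after their values were seen, and 8 members fell with only the 24 h arrays fitted.

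Ribosome biogenesis also rose, in 11 of 15 tested factors with 0 falls (median 0.40). NOP2, a methyltransferase of ribosomal RNA, went from 8.94 ± 0.17 to 9.64 ± 0.18 (log2 change 0.71, SE 0.10, 1.63-fold, adjusted p = 0.00259). WDR12 of the PeBoW complex and the nucleolar NOP16 rose by 0.41 and 0.62 (adjusted p = 0.00466 and 0.00868), NOP16 only with the block (0.0516 without it). The count was 3 without the block, and 3 without control 1, 4 without control 2 and 5 without any treated array. Of 12 tested BCL2 family members PMAIP1, the BH3-only protein NOXA, rose: it stood at 9.68, 10.15 and 10.60 in controls 1 to 3 and 10.80, 11.19 and 11.74 in treated 1 to 3, higher by about the same amount in every pair and without overlap (log2 change 1.10, SE 0.10, 2.14-fold, adjusted p = 0.000631). BIK and MCL1 fell by 0.41 and 0.34 (adjusted p = 0.0136 and 0.0144), but not without the block (0.085 and 0.0946) nor without control 1, control 2 or treated 1 for BIK and control 1, control 2, treated 1 or treated 2 for MCL1 (up to 0.0687 and 0.0691). With only the 24 h arrays fitted 3 members rose. For MCL1 the other probe sets changed by -0.14, -0.1, -0.22 and -0.22 and did not pass.

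**Figure D3:**
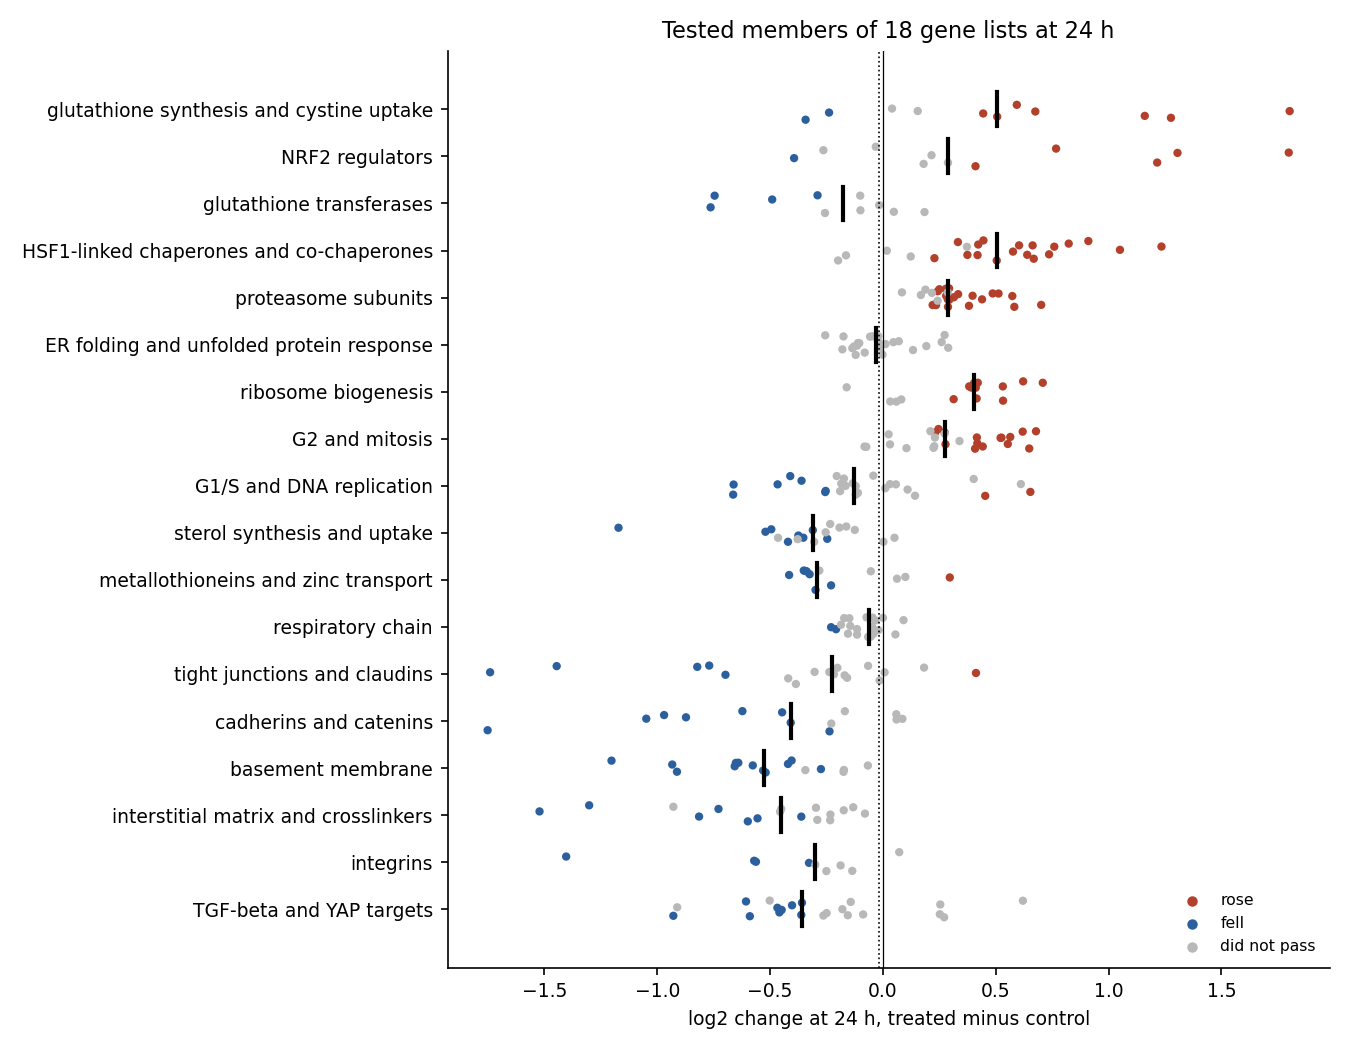
Log2 changes at 24 h of the tested members of 18 gene lists, 1 point per gene, coloured red for a rise, blue for a fall and grey where the test was not passed; black bars are list medians and the dotted line is the median over all tested genes, -0.02. Chaperone, proteasome and ribosome biogenesis members lie to the right of it and basement membrane and interstitial matrix members to the left.

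Part of the sterol genes fell. Of 18 tested genes of sterol synthesis and uptake 0 rose and 8 fell (24 listed; median -0.31). TM7SF2, a sterol reductase, stood at 8.73, 8.20 and 8.04 on the control arrays and 7.52, 6.90 and 7.03 on the treated arrays, lower on all treated arrays (log2 change -1.17, SE 0.19, 2.25-fold, adjusted p = 0.00377). Lanosterol synthase (LSS), the sterol-sensing factor SREBF2 and the prenyl synthase FDPS fell by 0.52, 0.50 and 0.35 (adjusted p = 0.00376, 0.00509 and 0.00832), and did not pass without the block (0.0537, 0.149 and 0.0537), where TM7SF2 was the 1 fall left. The count was 4 without any control array, treated 1 or treated 2.

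In fatty acid and triglyceride synthesis 3 of 19 rose and 7 fell. GPAT3, which acylates glycerol phosphate, rose and stood at 6.63, 6.46 and 6.86 in controls 1 to 3 and 7.73, 8.10 and 8.31 in treated 1 to 3 (log2 change 1.40, SE 0.19, 2.64-fold, adjusted p = 0.00213), all treated arrays being higher. Its mitochondrial relative GPAM rose by 0.73 (adjusted p = 0.00366) and the lipid droplet protein PLIN2, named after its value was seen, by 0.29. ATP citrate lyase (ACLY) fell and stood at 12.84, 12.76 and 12.91 on the control arrays and 12.36, 12.35 and 12.45 on the treated arrays (log2 change -0.45, SE 0.07, 1.37-fold, adjusted p = 0.00283). The fatty acid synthase FASN and the acyltransferase AGPAT2 fell by 0.60 and 0.64 (adjusted p = 0.00225 and 0.00542), though not without the block (0.149 and 0.1), where 2 of the 7 falls passed.

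ADM, the vasoactive peptide adrenomedullin, stood at 6.04, 6.08 and 6.30 in controls 1 to 3 and 7.61, 7.82 and 8.70 in treated 1 to 3, with every treated array higher and treated 3 highest (log2 change 1.90, SE 0.21, 3.74-fold, adjusted p = 0.0012). Its call held without the block and without any single array. Of 22 respiratory chain subunits 20 had negative changes, between -0.23 and 0.09 for all members, and SDHA (-0.21) and UQCRC2 (-0.23) were the only falls. Both were lost without each 24 h array in turn (up to 0.163 and 0.166) and without the block (0.156 and 0.158).

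Metallothioneins, the cysteine-rich proteins that buffer zinc and copper, fell slightly: in that list with zinc transporters 7 of 12 tested members fell and 1, the zinc-sensing factor MTF1 (named after its value was seen), rose by 0.30 (0.237 without the block). MT1E was at 13.73, 13.70 and 13.72 on the control arrays and 13.37, 13.30 and 13.48 on the treated arrays, lower on every treated array (log2 change -0.34, SE 0.07, 1.26-fold, adjusted p = 0.00905). MT1F and MT1X fell by 0.42 and 0.33 (adjusted p = 0.00512 and 0.00826), but only MT1E passed without the block (0.0471, against 0.0703 and 0.0747). The falls numbered 3 without control 2 and 4 without control 1. These genes are near copies of each other, so probes can cross between them.

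Some junction genes of the epithelium fell, a few of them several-fold. PPL, the plaque protein periplakin, stood at 7.18, 7.73 and 7.15 in controls 1 to 3 and 5.04, 5.08 and 5.27 in treated 1 to 3, with the groups far apart (log2 change -2.22, SE 0.18, 4.67-fold, adjusted p = 0.000375). SCEL, the cornified envelope protein sciellin, stood at 10.27, 10.76 and 9.68 on the control arrays and 8.10, 8.34 and 7.69 on the treated arrays, lower by more than 2-fold in each pair (log2 change -2.20, SE 0.19, 4.6-fold, adjusted p = 0.00056). Of 10 tested genes of desmosome and cornified envelope (20 listed) these 2 and the transglutaminase TGM2 fell and 0 rose, and 5 fell with only the 24 h arrays fitted. TGM2 changed by -0.78 (adjusted p = 0.0137), a call lost without control 1, treated 2 or treated 3 (up to 0.0667) and without the block (0.139).

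CDH1, the epithelial cadherin, was at 6.86, 7.00 and 7.40 in controls 1 to 3 and 5.54, 4.19 and 6.28 in treated 1 to 3. Every treated array was below every control, but treated 2 lay far below the other treated arrays (log2 change -1.75, SE 0.33, 3.37-fold, adjusted p = 0.00724). Of 13 tested cadherins and catenins 8 fell and 0 rose (median -0.41). Plakoglobin (JUP), which links cadherins to keratin and actin, was at 9.41, 8.63 and 9.33 on the control arrays and 8.35, 7.84 and 8.28 on the treated arrays, lower in every pair without overlap (log2 change -0.97, SE 0.11, 1.96-fold, adjusted p = 0.00131). The P-cadherin CDH3 was at 8.0, 7.66 and 8.22 in controls 1 to 3 and 6.82, 6.74 and 7.16 in treated 1 to 3, also without overlap (log2 change -1.05, SE 0.18, 2.07-fold, adjusted p = 0.0046; 0.0517 without the block). N-cadherin (CDH2) fell by 0.41 (adjusted p = 0.0104; 0.163 without the block) and the kidney cadherin CDH16 by 0.87 (0.0109; 0.26 without the block and up to 0.0546 without control 1 or control 2). The count was 3 without the block, and 4 without control 1 and 5 without treated 2.

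Of 18 tested tight junction genes 5 fell and 1 rose (25 listed; median -0.23). Cingulin (CGN), a cytoplasmic plaque protein, stood at 7.30, 7.14 and 7.12 on the control arrays and 5.62, 5.03 and 5.68 on the treated arrays, all treated arrays being lower (log2 change -1.74, SE 0.21, 3.34-fold, adjusted p = 0.00156). TJP3, the scaffold ZO-3, stood at 7.06, 6.48 and 6.40 in controls 1 to 3 and 5.76, 5.55 and 4.29 in treated 1 to 3 and was lowest on treated 3 (log2 change -1.45, SE 0.29, 2.73-fold, adjusted p = 0.00977). Another probe set of TJP3 changed by -0.43 and did not pass. The claudins CLDN2 and CLDN3 and occludin (OCLN) fell by 0.82, 0.77 and 0.70 (adjusted p = 0.0257, 0.0393 and 0.0393), and CLDN12, named after its value was seen, rose by 0.41. Only CGN and TJP3 passed without the block, and the falls numbered 2 without control 1, control 2, treated 1 or treated 2, 3 without 48 h control 2 or 48 h control 3 and 8 without 48 h treated 3. CLDN2, CLDN3 and OCLN reached 0.0598, 0.16 and 0.0583 without the block, and 8 members fell with only the 24 h arrays fitted.

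KRT19, a keratin of simple epithelium, was at 12.54, 12.33 and 12.64 on the control arrays and 11.55, 11.45 and 11.95 on the treated arrays, with each treated array lower (log2 change -0.85, SE 0.08, 1.81-fold, adjusted p = 0.000771). KRT8 fell by 0.53 (adjusted p = 0.00594; 0.281 without the block, with overlap), and KRT10, a keratin of stratified epithelium, rose from 10.54 ± 0.15 to 11.08 ± 0.11 (log2 change 0.54, SE 0.09, 1.46-fold, adjusted p = 0.00437). With KRT80 (-0.94) and KRT7 (-0.57), 4 of 6 tested keratins fell (2 without treated 2) and 1 rose. Without the block KRT19 was the only fall left (0.0658 for KRT80 and 0.335 for KRT7). TFCP2L1, a transcription factor of the distal nephron, stood at 5.58, 6.30 and 5.32 in controls 1 to 3 and 4.03, 4.74 and 3.87 in treated 1 to 3, lower in every pair (log2 change -1.51, SE 0.12, 2.85-fold, adjusted p = 0.000361), with treated 3 below 4. Another probe set of TFCP2L1 changed by -0.23 and did not pass. IRX3 and TFAP2A, further kidney developmental factors, fell by 0.72 and 0.56 (adjusted p = 0.00561 and 0.019; 0.0774 and 0.0609 without the block). PAX8, the lineage factor of renal epithelium, rose by 0.53 (adjusted p = 0.0133), a call lost without control 1, treated 1 or treated 2 (up to 0.0602) and without the block (0.137), and another of its probe sets had the opposite sign and did not pass.

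Transporters of the tubule fell in 4 of 18 cases and rose in 2. AQP3, a channel for water and glycerol, stood at 6.97, 7.29 and 5.23 on the control arrays and 4.69, 4.76 and 3.55 on the treated arrays, lower in every pair, with both replicate 3 arrays below the others of their group (log2 change -2.16, SE 0.31, 4.48-fold, adjusted p = 0.00273). SLC3A1, the heavy chain of the brush border cystine transporter and 1 of the 2 proximal tubule markers with a clear signal, was at 8.87, 8.59 and 7.99 in controls 1 to 3 and 7.43, 6.94 and 7.06 in treated 1 to 3, without overlap (log2 change -1.34, SE 0.17, 2.54-fold, adjusted p = 0.00183). SLC26A2 and SLC4A4, which carry sulfate and bicarbonate, fell by 0.67 and 0.40, and carbonic anhydrase 2 (CA2) and the cotransporter SLC12A2 (named after its value was seen) rose by 0.49 and 0.32. The falls numbered 2 without control 1, control 2 or treated 2, SLC26A2 and SLC4A4 being lost (up to 0.0847 and 0.0602), CA2 was lost without any control array, treated 1 or treated 2 (up to 0.0708), and neither rise passed without the block (0.0635 and 0.181), nor did SLC4A4 (0.467). Of 10 tested ABC transporters 3 rose and 2 fell. ABCC3, an exporter of organic anions, stood at 9.42, 9.51 and 9.09 on the control arrays and 8.45, 8.64 and 8.15 on the treated arrays, without overlap (log2 change -0.93, SE 0.09, 1.9-fold, adjusted p = 0.000771), and the drug pump ABCB1 fell by 0.65 (adjusted p = 0.00832; 0.154 without the block). Of the other ABCC3 probe sets 1 changed by -0.44 and passed, and the rest changed by -0.17, -0.23 and -0.15 and did not. ABCB6 and the translation factors ABCF1 (0.37) and ABCE1 (0.31) rose, ABCF1 and ABCE1 only with the block (0.0899 and 0.164 without it) and ABCE1 not without any control array, treated 1 or treated 2 (up to 0.0728).

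Many matrix genes fell, in the basement membrane and in the interstitial matrix. Of 16 tested collagens, laminins, nidogens and proteoglycans of the basement membrane (22 listed) 12 fell, 0 rose and all 16 had negative changes (median -0.53). COL4A2 stood at 13.01, 12.43 and 12.68 in controls 1 to 3 and 12.31, 11.87 and 12.21 in treated 1 to 3. Every treated array was below every control (log2 change -0.58, SE 0.07, 1.49-fold, adjusted p = 0.0015; 0.109 without the block). COL4A1, its partner chain, fell by 0.52 (adjusted p = 0.00273), and the proteoglycans HSPG2 and AGRN by 0.66 and 0.65 (0.00273 and 0.00311). The laminin chain LAMB2 stood at 7.29, 6.32 and 6.96 on the control arrays and 6.05, 5.10 and 5.81 on the treated arrays, lower in every pair by a similar amount (log2 change -1.20, SE 0.20, 2.3-fold, adjusted p = 0.00428). COL4A1, HSPG2, AGRN and LAMB2 did not pass without the block (0.0639, 0.0926, 0.217 and 0.148), where 4 of the 12 passed. The 4, named after their values were seen, were LAMA5 (-0.64), LAMC1 (-0.42), NID2 (-0.91) and COL4A5 (-0.93). The count was 6 without control 1, control 2 or treated 2.

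Of 17 tested genes of the interstitial matrix (26 listed) 7 fell, 0 rose and all 17 were negative (median -0.45). COL1A1, the main fibrillar collagen chain, stood at 9.17, 8.80 and 8.74 in controls 1 to 3 and 8.05, 7.35 and 7.39 in treated 1 to 3, without overlap (log2 change -1.30, SE 0.16, 2.47-fold, adjusted p = 0.00152). EFEMP1, fibulin-3, stood at 8.52, 8.39 and 8.40 on the control arrays and 6.86, 6.51 and 7.37 on the treated arrays, with the highest treated array still below every control (log2 change -1.52, SE 0.19, 2.87-fold, adjusted p = 0.00156). Tenascin C (TNC) stood at 10.73, 10.56 and 10.79 in controls 1 to 3 and 9.78, 9.76 and 10.10 in treated 1 to 3 (log2 change -0.82, SE 0.09, 1.76-fold, adjusted p = 0.001). LOXL2, a collagen crosslinker, and SPARC, a collagen-binding protein, fell by 0.60 and 0.36 (adjusted p = 0.00278 and 0.00448; 0.0579 and 0.1 without the block). COL1A1, EFEMP1 and TNC held without the block and without any single array. Other probe sets of COL1A1 changed less, by -0.72, which passed, and by -0.17, which did not. The falls numbered 4 without the block and 11 with only the 24 h arrays fitted. Of 7 fibroblast and pericyte markers COL1A1 and DCN fell and 0 rose. DCN, LUM, COL1A1 and ACTA2 lay above 4 on all 6 arrays, with control means of 12.3, 10.5, 8.9 and 6.4. COL1A2, COL3A1 and PDGFRB lay below 4 on all 6 arrays. The log2 of the markers' summed linear level was 12.49 to 13.00 in controls and 11.86 to 12.33 in treated cells. What those markers contribute to the change of the list was not tested.

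Of 9 tested integrins 4 fell and 0 rose (median -0.30). ITGB4, which pairs with ITGA6 in the laminin receptor of hemidesmosomes, stood at 7.14, 7.04 and 6.75 on the control arrays and 5.57, 5.41 and 5.74 on the treated arrays, all treated arrays being lower (log2 change -1.40, SE 0.24, 2.65-fold, adjusted p = 0.00488). ITGA6 fell by 0.57 (adjusted p = 0.00784), ITGA3 by 0.56 (0.00411) and ITGAV by 0.33 (0.0239). ITGB4 and ITGA6 held without the block and without any single array, whereas ITGA3 and ITGAV did not pass without the block (0.395 and 0.0615) and ITGAV was lost without any control array, treated 2 or treated 3 (up to 0.0931).

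Targets of TGF-beta and YAP fell in 9 of 21 cases and rose in 0 (median -0.36). With only the 24 h arrays fitted 12 fell and 3 rose. The inhibitory SMADs, SMAD6 and SMAD7, which the pathway induces as feedback, fell by 0.93 and 0.61 (adjusted p = 0.00442 and 0.00986), the repressor SKIL by 0.36 (0.00617), the ligand TGFB1 by 0.40 (0.0117) and the kinase LATS2 by 0.47 (0.0127). LATS2 alone passed without the block (0.0348; 0.0748, 0.0548, 0.289 and 0.609 for the others), but not without control 1, control 2 or treated 2 (up to 0.061). The count was 3 without control 1, 4 without treated 2 and 5 without control 2 or treated 1. Other probe sets of SMAD6 and SKIL had the opposite sign and did not pass. Those of LATS2 changed by -0.02 and -0.3 and did not pass either.

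VCAM1, an adhesion molecule for leukocytes that injured tubules express, shared the smallest adjusted p of all tested genes. It stood at 6.60, 6.66 and 7.37 in controls 1 to 3 and 4.46, 4.53 and 5.13 in treated 1 to 3, lower by more than 4-fold in every pair (log2 change -2.17, SE 0.11, 4.5-fold, adjusted p = 0.000135). Of 20 immediate early and MAPK feedback genes 4 rose and 4 fell. DUSP5, a phosphatase for ERK, stood at 9.92, 9.61 and 10.14 on the control arrays and 10.72, 10.53 and 10.98 on the treated arrays, without overlap (log2 change 0.85, SE 0.13, 1.8-fold, adjusted p = 0.0034). FOSL1, the AP-1 subunit FRA-1, stood at 6.42, 5.05 and 7.34 in controls 1 to 3 and 7.79, 6.89 and 8.36 in treated 1 to 3, higher in each pair but with overlapping groups (log2 change 1.41, SE 0.20, 2.65-fold, adjusted p = 0.00259; 0.233 without the block). JUN rose by 0.70, and JUNB and JUND fell by 0.46 and 0.34 (adjusted p = 0.0194, 0.0107 and 0.0108; 0.064, 0.0835 and 0.212 without the block). The remaining calls ETV5 (0.34), EGR1 (-0.71) and SPRY1 (-0.96) were named after their values were seen. Without the block DUSP5 was the only call left, and another probe set of JUND had the opposite sign and did not pass. The rises numbered 2 without control 1, control 2 or treated 1, and the falls 1 without control 2 and 2 without control 1 or any treated array.

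Of 16 tested interferon response genes 4 rose and 1 fell (median 0.22). IFIT3, which binds foreign RNA with its relatives, stood at 9.70, 9.64 and 9.78 on the control arrays and 10.25, 10.29 and 10.32 on the treated arrays, without overlap (log2 change 0.58, SE 0.11, 1.49-fold, adjusted p = 0.00633). IFIT1 and IFIT2 rose by 0.89 and 0.60 (adjusted p = 0.00759 and 0.0077; 0.164 and 0.245 without the block). OASL rose by 0.74 and OAS3 fell by 0.38, and OASL was lost without any control array, treated 1, treated 3 or 48 h treated 2 and OAS3 without control 1, control 3, treated 1, treated 3, 48 h control 1, 48 h control 2, 48 h control 3 or 48 h treated 2 (up to 0.134 and 0.138). Without the block IFIT3 alone passed, and with only the 24 h arrays fitted 7 rose and 0 fell. In Wnt, Notch and hedgehog signalling 5 of 22 fell and FZD7 (named after its value was seen) rose by 1.10 (0.146 without the block). The receptor FZD2 stood at 10.06, 9.46 and 9.53 in controls 1 to 3 and 9.14, 8.61 and 8.90 in treated 1 to 3, lower in every pair without overlap (log2 change -0.80, SE 0.11, 1.74-fold, adjusted p = 0.00213), and the factor TCF7L2 fell by 0.37 (adjusted p = 0.00612). DISP2, of the hedgehog release family, stood at 4.62, 5.61 and 5.54 on the control arrays and 3.25, 3.28 and 3.28 on the treated arrays. All treated arrays were below 4, so its size depends on the background correction (log2 change -1.99, SE 0.24, 3.97-fold, adjusted p = 0.00153). NOTCH3 and JAG2 fell by 0.64 and 0.60, and the falls numbered 3 without control 1, control 2 or treated 1, when these 2 were lost (up to 0.111 and 0.163). They did not pass without the block either (0.105 and 0.32), and with only the 24 h arrays fitted 3 members rose and 10 fell.

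Among 12 circadian genes HLF and PER2 fell and NR1D2 rose. HLF, an output factor of the clock, stood at 7.97, 8.20 and 7.87 in controls 1 to 3 and 6.62, 6.99 and 6.94 in treated 1 to 3 (log2 change -1.17, SE 0.15, 2.24-fold, adjusted p = 0.00213) and PER2, a repressor of the clock, at 6.12, 6.43 and 5.97 on the control arrays and 4.75, 5.31 and 5.15 on the treated arrays (log2 change -1.11, SE 0.18, 2.15-fold, adjusted p = 0.00403), both without overlap. NR1D2 rose by 0.57 (adjusted p = 0.00954; 0.113 without the block). With only the 24 h arrays fitted 2 rose and 4 fell. Of 16 tubular injury and secreted stress markers 2 rose, ADM and GDF15, and 3 fell, VCAM1, KRT19 and HAVCR1. HAVCR1, the injury marker KIM-1, stood at 11.38, 11.58 and 11.40 in controls 1 to 3 and 10.69, 10.92 and 11.16 in treated 1 to 3. Every treated array was lower, least so treated 3 (log2 change -0.53, SE 0.10, 1.44-fold, adjusted p = 0.00683; 0.0618 without the block). GDF15, a secreted stress cytokine, stood at 10.45, 10.65 and 10.51 on the control arrays and 11.39, 11.52 and 11.29 on the treated arrays, without overlap (log2 change 0.87, SE 0.23, 1.82-fold, adjusted p = 0.024). The GDF15 call was lost without control 1, control 2, treated 2 or treated 3 (up to 0.108), which left 1 rise, and without the block (0.0588). With only the 24 h arrays fitted 4 markers rose.

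Several of the largest changes lay outside the lists. The transcription factor RUNX2 fell and stood at 7.10, 6.41 and 7.13 in controls 1 to 3 and 5.16, 4.25 and 5.66 in treated 1 to 3, lower in every pair (log2 change -1.86, SE 0.17, 3.63-fold, adjusted p = 0.000643; 0.0537 without the block). CTHRC1, a secreted collagen triple helix repeat protein, stood at 10.11, 9.70 and 10.08 on the control arrays and 8.41, 8.09 and 8.71 on the treated arrays, without overlap (log2 change -1.56, SE 0.21, 2.95-fold, adjusted p = 0.00238). ENDOD1 stood at 6.14, 6.62 and 6.54 in controls 1 to 3 and 4.61, 4.02 and 4.73 in treated 1 to 3 (log2 change -1.98, SE 0.27, 3.94-fold, adjusted p = 0.00249), all treated arrays lower. Another probe set of ENDOD1 changed by -0.37 and did not pass. The actin regulator EVL fell by 1.59 (adjusted p = 0.00209; 0.0526 without the block) and the phosphate transporter SLC34A2 by 1.90 (adjusted p = 0.0111; 0.11 without the block and 0.053 without treated 2). Among the rises DGKG, a diacylglycerol kinase, stood at 4.74, 4.98 and 5.48 on the control arrays and 6.67, 6.51 and 6.45 on the treated arrays, without overlap (log2 change 1.48, SE 0.25, 2.78-fold, adjusted p = 0.00517), and the zinc finger gene ZSCAN31 rose by 1.34 (adjusted p = 0.00101). The largest fall of all, ENPP3, an ectonucleotidase named after its values were seen, stood at 7.62, 7.60 and 5.36 in controls 1 to 3 and 5.40, 4.76 and 3.45 in treated 1 to 3. It fell in every pair (log2 change -2.33, SE 0.23, 5.01-fold, adjusted p = 0.000818), but control 3 lay below treated 1 and it did not pass without the block (0.0828).

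Among genes with a mean of 12 or more the median size of change was 0.122. In the top 5% of genes by level EIF5, a start codon selection factor of translation, was at 12.21, 12.35 and 12.45 on the control arrays and 13.07, 13.27 and 13.33 on the treated arrays, with every treated array higher (log2 change 0.89, SE 0.15, 1.85-fold, adjusted p = 0.0046). MYOF, the membrane repair protein myoferlin, was at 13.39, 13.45 and 13.24 in controls 1 to 3 and 12.69, 12.73 and 12.71 in treated 1 to 3, lower on all treated arrays (log2 change -0.65, SE 0.07, 1.57-fold, adjusted p = 0.001), and ARL6IP5, a membrane protein that affects glutamate transport, was at 12.96, 12.98 and 12.94 on the control arrays and 12.49, 12.38 and 12.56 on the treated arrays (log2 change -0.49, SE 0.09, 1.4-fold, adjusted p = 0.00566). All 3 held without the block and without any single array.

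At 48 h the same contrast passed for 6130 genes (57.5%). The 48 h comparison has its own control arrays but shares the fit and the replicate numbers with that of 24 h, and arrays of equal number deviated together across both times. Of the 2602 genes called at 24 h, 2382 were called at 48 h in the same direction, 215 were not called and 5 were called in the opposite one. The difference between the 2 effects passed for 785 of the tested genes (7.36%) and for 432 of the 2602, of which 419 lay farther from 0 at 48 h. Without the block 15 differences passed over all tested genes, and without single arrays the 785 became 95 to 2499. NQO1 went from a log2 change of 1.29 to 2.73 (difference 1.44, adjusted p = 0.0105; 0.0269 without the block), EFEMP1 from -1.52 to -4.11 (difference -2.58, adjusted p = 0.00942; 0.0129) and COPZ2, a coatomer subunit, from -0.84 to -2.94 (difference -2.10, adjusted p = 0.00942; 0.0269). HMOX1 went from 1.97 to 2.67, a difference that did not pass (0.0667), and IFIT3 from 0.58 to 0.13 (difference -0.45, 0.092). CBR3 was back near 0 at 48 h (0.02; difference -0.56, adjusted p = 0.0298, and 0.113 without the block).

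The 5 genes that turned were small in both directions. The cationic amino acid transporter SLC7A2 went from 0.51 to -0.34, the potassium channel KCNK3 from -0.46 to 0.40, the polyadenylation factor PCF11 from 0.43 to -0.46, FAM174A from 0.27 to -0.27 and MNS1 from -0.24 to 0.26. Their differences passed with the block (adjusted p = 0.021, 0.0303, 0.0144, 0.0312 and 0.0327) and none passed without it (0.0753, 0.249, 0.0642, 0.263 and 0.261). The 24 h calls of KCNK3, FAM174A and MNS1 did not pass without the block (0.269, 0.318 and 0.337), and another probe set of PCF11 had the opposite sign and did not pass.

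**Figure D4:**
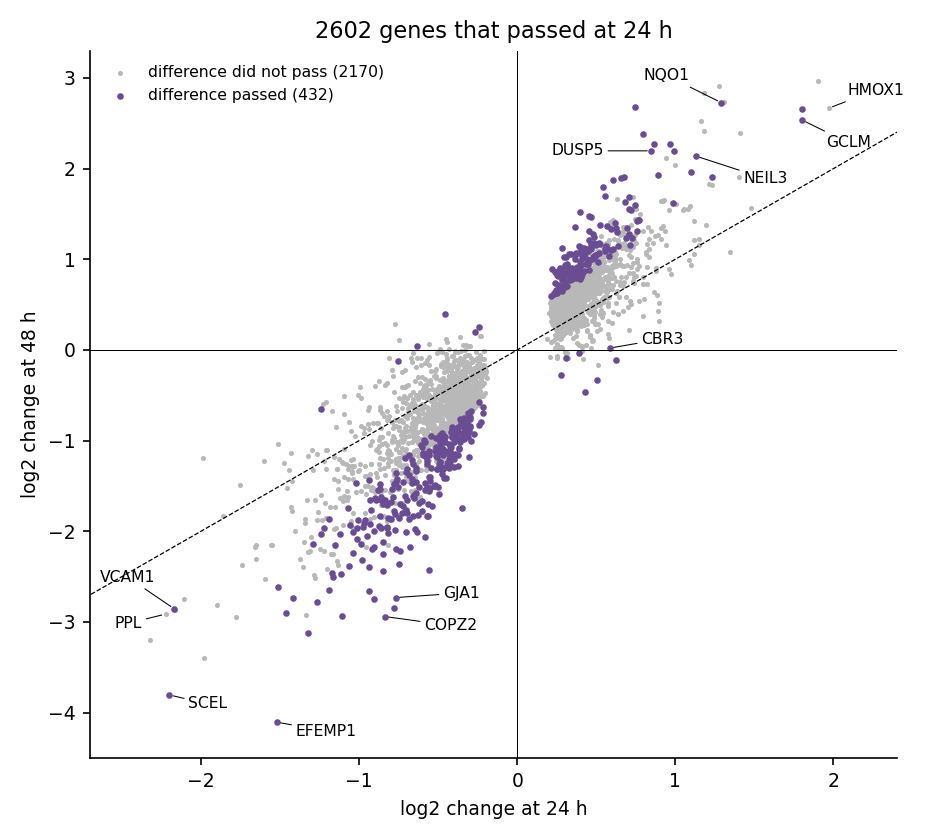
Log2 change at 48 h (vertical axis) against that at 24 h (horizontal axis) for the 2602 genes called at 24 h, with the 432 whose difference between times passed in purple and the line of equal change dashed. Most purple points, 419 of 432, lie farther from 0 at 48 h than at 24 h, among them NQO1, DUSP5 and NEIL3 above and EFEMP1, COPZ2 and GJA1 below.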

How the data were processed

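The authors deposited log2 values for 54675 probe sets of 12 Affymetrix arrays. The submitters' processing notes name GCRMA; its version, its settings and the set of arrays normalized together are not stated there. GCRMA estimates each probe's background from its sequence, then applies quantile normalization and a log2 summary. That the scale is log2 was read from the range of values, which topped out at 16 to 16.2 on each array. Total RNA was extracted on columns and labelled with biotin per the labels' protocols. How many arrays there are limits the precision.

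Of the probe sets 41091 carried a single gene symbol in the platform annotation and were named; 1801 carried several, 11721 carried none and 62 were controls. For 24 h, 48 h and their difference, limma 3.58.1 (R 4.3.3; lmFit, then eBayes) estimated 4 group means and the replicate number over the 12 arrays together, because the comparison matches arrays by that number. P-values are two-sided, adjusted by Benjamini-Hochberg over 10665 genes; SE is limma's. An exact test on 3 against 3 arrays that ignores the matching could not go below 0.1, and the floor of a matched one is higher. Deviations from group means correlated at 0.279 to 0.701 for the 18 pairs that share a number across groups, against -0.454 to -0.0613 for the 36 pairs that do not, so the numbers pair the arrays. On simulated data 79 of 100 genes changed by 0.75 and 98 of 100 changed by 1.5 on the log2 scale were recovered. Smaller changes, such as the median of 0.458 among the called genes, were not simulated. Neither was a share of changed genes as large as the share called.

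The members, the 48 gene lists and the rules were chosen with earlier results of these data known. Genes were named from the 15 largest rises and falls without overlap and with a higher mean of at least 6, up to 5 members of each list with the smallest p, 5 each way in the top 5% by level, 5 each way for the difference between times and those opposite at 48 h, and a short list of stress and epithelial genes whatever their values; others are marked. Not all genes and lists under these rules are described. Superoxide and peroxide enzymes, with 1 rise and 1 fall among 9 tested, are 1 list left out. Further probe sets that changed less or did not pass are given for some genes only, so their absence from the text does not mean that they passed. Promoter sequences and the gene table came from RefSeq (GRCh38.p14). The alternatives were no block, other filters, scalings, probe set rules and variance models (statmod 1.5.0 for array weights), the 24 h arrays alone, and each array left out in turn.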

Additional observations from a re-analysis of the deposited data

Results flagged for a closer look

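The treatment effect at 48 h differed from that at 24 h by the test of the difference in 60 of the genes reported above (limma with the replicate block, adjusted p from 0.00942 to 0.0465). That test passed for 785 of the 10665 tested genes (7.36%) and for 432 of the 2602 called at 24 h. Some of the 60, among them the 5 that changed sign, were named because they passed it, so the 60 cannot be read against these shares. Each value below is the log2 change at 48 h minus that at 24 h. Of the 60, only EFEMP1, COPZ2 and NQO1 passed that test without the block, and no explanation of these differences was tested.

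The rises at 24 h that were larger at 48 h were, among genes of glutathione, thioredoxin, quinone and heme metabolism and of NADPH supply, NQO1 (1.44), GCLC (1.23), GCLM (0.73), TRIM16 (0.86), TXNRD1 (0.67), MAFG (0.66), ALAS1 (0.53), ME1 (0.52), UGDH (0.52) and TXN (0.51). NFE2L2, which did not pass at 24 h, had a difference of 0.65. Among stress, growth and repair genes they were GDF15 (1.41), DUSP5 (1.35), MCM10 (1.24), NEIL3 (1.01), JUN (0.98), PMAIP1 (0.86), RFC3 (0.76), NOP2 (0.57), TIGAR (0.55), ETV5 (0.51), WDR12 (0.42) and PSMD14 (0.38).

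The falls that were larger at 48 h were, among junction, epithelial and transport genes, GJA1 (-1.96), SCEL (-1.61), TFCP2L1 (-1.10), SLC4A4 (-0.80), VCAM1 (-0.69) and CDH2 (-0.50), and among matrix and adhesion genes EFEMP1 (-2.58), AGRN (-0.95), LAMA5 (-0.70), ITGA6 (-0.69), COL4A2 (-0.61), LOXL2 (-0.54) and SPARC (-0.40). Among metabolic and detoxification genes they were TM7SF2 (-1.28), GSTA4 (-0.72), AGPAT2 (-0.66), NNT (-0.66), IDH2 (-0.58), PGLS (-0.55), GSTK1 (-0.53) and FDPS (-0.42), and among metallothioneins MT1F (-0.78), MT1E (-0.52) and MT1X (-0.52). The others were COPZ2 (-2.10), HLF (-1.34), FZD2 (-0.88), ARL6IP5 (-0.83), CCND2 (-0.81), MCL1 (-0.48) and GABARAP (-0.47).

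The effect of CBR3 was nearer 0 at 48 h, with a difference of -0.56, and 5 genes had changed sign: SLC7A2 (-0.84), PCF11 (-0.89), FAM174A (-0.55), KCNK3 (0.86) and MNS1 (0.50). An outlying array cannot be called in groups of 3, so no array was singled out in this way.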

How the results depend on the processing

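The count of 2602 genes at 24 h depended on the replicate block most of all. It was 612 without the block (265 higher, 347 lower), 3673 with only the 24 h arrays fitted (1603 and 2070), where 29 counts of list members moved by more than 1.5 times, and 4436 with array weights (1983 and 2453), a fit that stopped before convergence, and it ranged from 1081 without control 1 to 3193 without treated 3 of 48 h. The rises ranged from 422 to 1386 and the falls from 659 to 1807 over the same arrays. Each probe set tested by itself gave 1719 rises. Rises of at least 2-fold numbered 76 with every probe set and 22 to 43 without single arrays, against 32. Falls of at least 2-fold numbered 92 without the block, 73 with probe sets averaged per gene and 110 to 175 without single arrays, against 140. The share of rises among the calls was 42.7% and lay between 39.8% and 48.1% under the other settings. At 48 h 10428 probe sets passed when each was tested by itself and 5133 to 6275 genes without single arrays, against 6130. Differences between times numbered 785, 15 without the block, 492 without the filter, 1276 with an intensity trend and robust variance, 3703 with array weights and 95 to 2499 without single arrays.

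Of 272 genes followed through these settings, none turned sign. In several settings the sign could not turn, because the estimated change stays the same. These are the fits without the block, with other filters, with the intensity trend and with only the 24 h arrays. With every probe set, the probe set of the main fit was the one followed for each gene. Without the block 100 kept their side of the threshold and 172 lost the call. The numbers lost were 6 and 11 under the other scalings, 55 without the filter, 38 with the mean of probe sets and 21 with every probe set, and 111, 102, 55, 83, 91 and 71 without control 1 to 3 and treated 1 to 3. The cause of these shifts was not tested. With 3 arrays a group and 6 residual degrees of freedom, small changes near the threshold are limited by the number of arrays, and changes that reach below a log2 value of 4 by the background correction. Counts without the replicate block stand beside the gene lists reported above that it moved.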
